A study of Arabidopsis thaliana with 9 samples.

Results

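Salicylic acid synthesis and EDS1 defence were examined through 10 loci of Arabidopsis thaliana, taken by locus identifier from a table of 25199 loci. The loci were SARD1 (AT1G73805), CBP60g (AT5G26920), ICS1 (AT1G74710), EDS5 (AT4G39030), EDS1 (AT3G48090), PAD4 (AT3G52430), SAG101 (AT5G14930), NPR1 (AT1G64280), PR1 (AT2G14610) and PR2 (AT3G57260). RNA was sequenced from whole seedlings that were 7 days old and had received no treatment. A RAV1 over-expression line (RAV1OE in the deposited table), the bes1-D mutant and En2 wild type gave 3 biological replicates each, all in the Enkheim (En2) accession. RAV1 is a DNA-binding protein with an AP2 and a B3 domain. The sources used here do not give the promoter of the RAV1 transgene or say how many independent lines there were. bes1-D is a dominant allele known to stabilise BES1, the transcription factor at the end of brassinosteroid signalling. The title of the series names mutual repression of RAV1 and BES1 and their opposite effects on growth and defence genes as its subject.

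Salicylic acid is a defence hormone that plants make mainly in the chloroplast, where ICS1 turns chorismate into isochorismate, and EDS5 carries the product across the chloroplast envelope. SARD1 and CBP60g are related transcription factors that are known to bind and switch on ICS1. EDS1 pairs with either PAD4 or SAG101, and the 2 kinds of dimer work with the helper receptors ADR1 and NRG1, so the EDS1 node reinforces salicylic acid production and links immune receptors to cell death. NPR1 binds salicylic acid and, with TGA factors, activates the antimicrobial genes PR1 and PR2, which are used as markers of this hormone.

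Promoters are shown for 3 of the loci. SARD1 and CBP60g are related regulators, of which SARD1 was called higher in RAV1OE than in En2 wild type and CBP60g was not. ICS1 is a gene both are known to bind. Each window holds the 300 bases before the annotated gene start in the RefSeq genome (build TAIR10.1, a Columbia reference), read along the strand of the gene. In SARD1 (chr1:27749249-27749548, minus strand) and CBP60g (chr5:9475379-9475678, plus strand) capitals mark CAACA, the half-site known for the AP2 domain of RAV1, on either strand. In ICS1 (chr1:28069995-28070294, plus strand) they mark GAAATTT or its reverse complement, the core known for CBP60g and SARD1.
SARD1: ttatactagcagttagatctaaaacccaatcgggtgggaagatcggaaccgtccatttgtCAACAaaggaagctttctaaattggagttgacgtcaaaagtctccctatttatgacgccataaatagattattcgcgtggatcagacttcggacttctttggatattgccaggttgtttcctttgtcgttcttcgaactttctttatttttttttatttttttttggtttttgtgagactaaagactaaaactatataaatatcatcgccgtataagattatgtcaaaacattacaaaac
CBP60g: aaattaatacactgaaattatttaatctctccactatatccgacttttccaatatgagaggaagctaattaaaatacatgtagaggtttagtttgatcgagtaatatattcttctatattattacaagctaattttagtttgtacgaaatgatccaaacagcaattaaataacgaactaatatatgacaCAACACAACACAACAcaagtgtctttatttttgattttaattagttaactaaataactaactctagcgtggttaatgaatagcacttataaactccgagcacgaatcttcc
ICS1: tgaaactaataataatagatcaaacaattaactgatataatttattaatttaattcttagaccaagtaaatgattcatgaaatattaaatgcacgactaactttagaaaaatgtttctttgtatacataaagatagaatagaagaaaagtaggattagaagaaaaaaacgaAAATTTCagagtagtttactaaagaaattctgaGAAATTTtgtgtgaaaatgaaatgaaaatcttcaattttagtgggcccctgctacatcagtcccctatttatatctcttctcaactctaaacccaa
CAACA occurred once in SARD1 and in 3 adjacent repeats in CBP60g, and GAAATTT occurred at 2 places in ICS1. Both strands of all 27438 promoter windows of this length were searched for the same letters. CAACA was in 53.8% of them and in 5 of the 10 loci (SARD1, CBP60g, EDS1, NPR1 and PR1), and GAAATTT was in 14.9% and in ICS1 only among the 10. The half-site known for the B3 domain, CACCTG, was in 3.11% of all windows and in none of the 10. The W-box core TTGAC, bound by WRKY factors, was in 50.4% of windows and in 6 of the 10 loci, with 4 matches in SARD1. The TGA core TGACG, which can overlap a W-box, was in 21.3% of windows and in SARD1, EDS1 and PR2. The G-box CACGTG was in 7.09% of windows and the brassinosteroid response element CGTGTG in 6.12%. Both occurred in the PR2 window alone, where they overlap. These are counts of letters and do not show that a site is used.

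RAV1 had 1064, 756 and 1426 FPKM in RAV1OE replicates 1 to 3, where FPKM are fragment counts divided by transcript length and sequencing depth, against 71.4, 99.0 and 81.9 FPKM in En2 wild type. BES1 averaged 154 FPKM in bes1-D and 108 FPKM in En2 wild type, with no overlap of the libraries, but its difference was not called (adjusted p = 0.0692). Column sums were 890880 to 971271 FPKM per library, and absolute depth is unknown. Pearson correlations of log2 values were 0.970 to 0.985 within groups and 0.917 to 0.975 between groups. The shoot and root marker genes were above 0 in every library. The root gene PHT1;1 had only 0.46, 0.39 and 0.41 FPKM in RAV1OE, against 9.88, 13.52 and 2.4 FPKM in En2 wild type. Transcripts of 8 seed genes summed to 136 to 1636 FPKM in RAV1OE. Their sums were 22.0 to 35.3 FPKM in bes1-D and 17.7 to 32.5 FPKM in En2 wild type. These are bulk libraries, so a change in the number of cells of a type and a change in RNA per cell cannot be told apart.

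In the RAV1OE line the regulator SARD1, the transporter EDS5, the EDS1 partners PAD4 and SAG101, the receptor NPR1 and the response gene PR2 were higher than in En2 wild type, while ICS1, EDS1 and CBP60g were not called. That is 6 members higher and 0 lower of 9 tested, where 15% of the 19740 loci tested were called higher and 8.01% lower (23% in either direction). A locus was called at an adjusted p under 0.05 (limma on log2(FPKM + 1), Benjamini-Hochberg over all loci, two-sided), and tested if it reached 1 FPKM in at least 3 libraries. PR1 missed that filter. PR2 reached 1 FPKM in all 3 RAV1OE libraries and in 1 of En2 wild type, so its passing the filter and its difference are not independent. Of the 8 members at 1 FPKM or more in every library, 5 were called higher and 0 lower. The median log2 difference of the 9 was 0.54, beside 0.09 over all loci tested.

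No member was called in bes1-D against En2 wild type, where 2.19% of loci were called higher and 5.77% lower (7.96% in either direction). SARD1 had the lowest adjusted p of the 9 there by limma (0.125), and 2 members, SARD1 and PAD4, were under 0.05 without adjustment. The median of the 9 was -0.05, beside -0.06 over all loci. Tested directly against bes1-D, RAV1OE had 6 members higher and 1 lower of 9, where 28% of loci were called higher and 10.6% lower (38.5% in either direction). PR2 is 1 of the 6 and passed the filter mainly through the RAV1OE libraries, so its passing and this difference are not independent. Of the 8 members at 1 FPKM or more in every library, 5 were called higher than in bes1-D and 1 lower. All 3 comparisons draw on the same libraries, and both comparisons with En2 wild type share its 3 libraries.

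**Figure D1:**
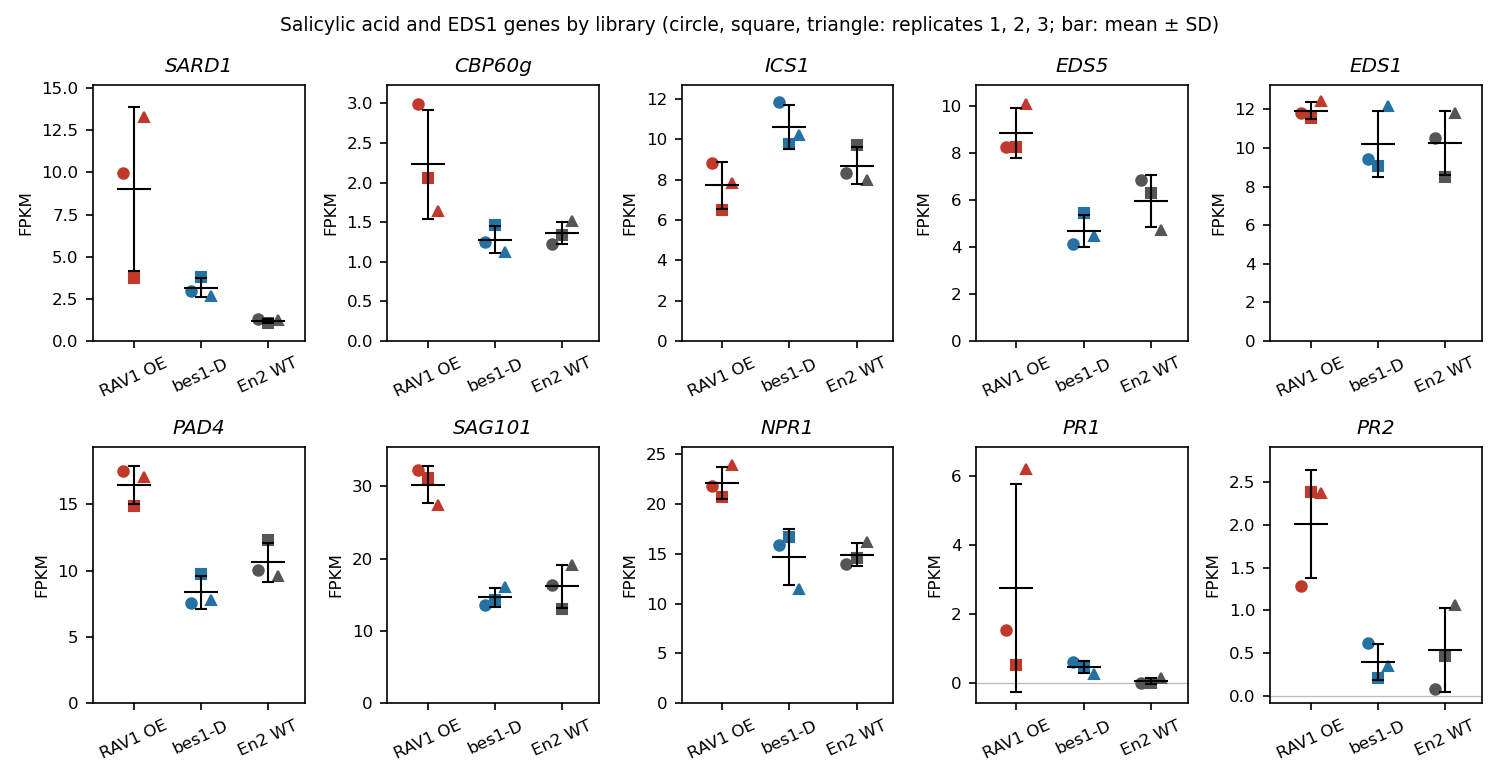
FPKM of the 10 loci in each library, with RAV1 over-expression (RAV1 OE) at the left, bes1-D in the middle and En2 wild type (En2 WT) at the right of every panel. Symbols are replicates 1 to 3, and bars are the mean and SD. PAD4, SAG101 and NPR1 are tight and higher in RAV1OE, SARD1 and PR1 are higher with a wide spread, and ICS1 is highest in bes1-D.

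SARD1 showed the widest separation of the transcription factor pair. It had 9.96, 3.75 and 13.3 FPKM in RAV1OE replicates 1 to 3, 2.98, 3.81 and 2.7 FPKM in bes1-D, and 1.28, 1.07 and 1.22 FPKM in En2 wild type. Every library of both lines lay above every En2 wild type library, and RAV1OE replicate 2 lay inside the bes1-D range. Mean SARD1 was 7.57 times the En2 wild type mean in RAV1OE (log2 difference 2.05, SE 0.333, adjusted p = 0.00266). In bes1-D it was 2.66 times that mean but not called (0.92, SE 0.333, adjusted p = 0.125). That p was 0.0156 with only the 2 groups in the fit and 0.0106 without RAV1OE replicate 2. RAV1OE was higher than bes1-D by 1.13 (adjusted p = 0.0239). This call was lost without RAV1OE replicate 1 (0.0823) or 3 (0.0714), without bes1-D replicate 1 (0.0628) or 3 (0.0707), with only the 2 groups fitted (0.0559) and under quantile normalization (0.0594).

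CBP60g, the calmodulin-binding relative of SARD1, stayed under 3 FPKM in every library. Its values were 2.99, 2.06 and 1.64 FPKM in RAV1OE, 1.25, 1.46 and 1.13 FPKM in bes1-D, and 1.23, 1.34 and 1.51 FPKM in En2 wild type. All RAV1OE libraries lay above all En2 wild type libraries, but the test did not call them different (log2 difference 0.43, 95% interval 0.03 to 0.83, adjusted p = 0.107). Against bes1-D the difference was 0.48 (adjusted p = 0.0552), which passed without RAV1OE replicate 3 (0.0336) and with a plain empirical Bayes prior (0.0305). The SARD1 to CBP60g ratio of FPKM was 3.33, 1.82 and 8.11 in RAV1OE, 2.38, 2.61 and 2.39 in bes1-D, and 1.04, 0.799 and 0.808 in En2 wild type. Both lines therefore lay above En2 wild type in every library, and they overlapped each other.

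ICS1, the isochorismate synthase that feeds most salicylic acid synthesis, was not higher in RAV1OE. It had 8.83, 6.5 and 7.86 FPKM in RAV1OE, 11.9, 9.79 and 10.2 FPKM in bes1-D, and 8.35, 9.74 and 7.99 FPKM in En2 wild type. RAV1OE overlapped En2 wild type (log2 difference -0.16, 95% interval -0.45 to 0.14, adjusted p = 0.416), so the interval leaves out a rise of more than 0.14. All 3 bes1-D libraries lay above En2 wild type, yet the difference was small and not called (0.26, adjusted p = 0.27). ICS1 was the 1 member called lower in RAV1OE than in bes1-D (-0.42, adjusted p = 0.031). That call was lost without RAV1OE replicate 2 (0.0955) or 3 (0.06), without bes1-D replicate 1 (0.0956) and with only the 2 groups fitted (0.0535).

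EDS5, the chloroplast transporter, did not follow ICS1. It had 8.28, 8.25 and 10.11 FPKM in RAV1OE, 4.15, 5.45 and 4.49 FPKM in bes1-D, and 6.87, 6.31 and 4.73 FPKM in En2 wild type. RAV1OE lay above both other groups in every library. Its log2 difference was 0.51 from En2 wild type (adjusted p = 0.037) and 0.80 from bes1-D (adjusted p = 0.00332). The first call was lost without En2 wild type replicate 2 (0.0734) or 3 (0.122), without RAV1OE replicate 1 (0.0744) or 3 (0.126), and under both other scalings, by median of ratios (0.0763) and by quantiles (0.0748). With the replicate number as a block its adjusted p was 0.0587.

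The balance between transporter and synthase differed among all 3 groups. Per library, the EDS5 to ICS1 ratio was 0.938, 1.27 and 1.29 in RAV1OE, 0.350, 0.557 and 0.440 in bes1-D, and 0.823, 0.648 and 0.592 in En2 wild type. No library of one group reached the range of another. A ratio within a library does not depend on its scaling. In the exact permutation test of 3 against 3 libraries each pair of groups gave p = 0.1, the smallest that test allows, or 0.15 adjusted over the 12 ratio comparisons made. These ratios were chosen after the values had been seen.

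**Figure D2:**
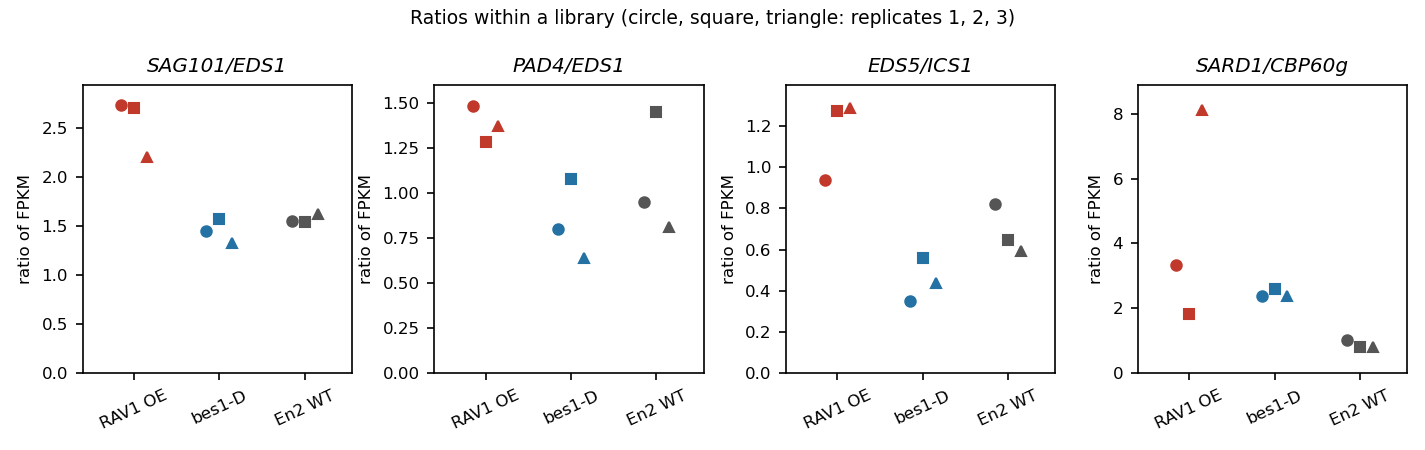
Ratios of FPKM between paired members in each library, for RAV1 over-expression (RAV1 OE), bes1-D and En2 wild type (En2 WT) from left to right, with symbols for replicates 1 to 3. The EDS5/ICS1 ratio falls into 3 separate bands, and SAG101/EDS1 is above 2 in every RAV1OE library and below 2 in every other library.

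EDS1 itself, the part that both dimers share, varied little. It had 11.8, 11.6 and 12.5 FPKM in RAV1OE, 9.4, 9.06 and 12.2 FPKM in bes1-D, and 10.5, 8.47 and 11.8 FPKM in En2 wild type. All 3 groups overlapped, with a log2 difference of 0.21 for RAV1OE from En2 wild type (95% interval -0.10 to 0.52, adjusted p = 0.297) and of -0.01 for bes1-D (95% interval -0.32 to 0.30, adjusted p = 0.985). EDS1B, its near copy beside it on chromosome 3, had 1.56, 1.84 and 1.88 FPKM in RAV1OE, 1.43, 0.75 and 1.44 FPKM in bes1-D, and 1.86, 1.44 and 1.2 FPKM in En2 wild type. Of the 25-base windows of EDS1, 4.9% also occur in EDS1B, and no 100-base window does, in the Columbia reference. The sources used here do not say how fragments that match both were counted.

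PAD4, the lipase-like partner that supports basal resistance, was higher in RAV1OE. It had 17.5, 14.9 and 17.1 FPKM in RAV1OE, 7.54, 9.77 and 7.78 FPKM in bes1-D, and 10.02, 12.3 and 9.59 FPKM in En2 wild type. The lowest RAV1OE library was above the highest library of both other groups. Mean PAD4 was 1.55 times the En2 wild type mean (log2 difference 0.59, SE 0.131, adjusted p = 0.0101) and 1.97 times the bes1-D mean (0.90, adjusted p = 0.000747). In bes1-D it was lower than En2 wild type by an amount that was not called (-0.31, adjusted p = 0.178).

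SAG101, the partner tied to cell death through NRG1 receptors, had the highest mean of the 10 in each group. It had 32.2, 31.2 and 27.4 FPKM in RAV1OE, 13.6, 14.3 and 16.2 FPKM in bes1-D, and 16.3, 13.1 and 19.1 FPKM in En2 wild type. All RAV1OE libraries lay above all others, which overlapped each other. Mean SAG101 was 1.87 times the En2 wild type mean (log2 difference 0.88, SE 0.134, adjusted p = 0.0019) and 2.06 times the bes1-D mean (1.00, adjusted p = 0.000522). The bes1-D difference from En2 wild type was -0.12 (95% interval -0.42 to 0.18). Relative to EDS1 in the same library, SAG101 stood at 2.73, 2.70 and 2.20 in RAV1OE, 1.45, 1.58 and 1.33 in bes1-D, and 1.55, 1.55 and 1.62 in En2 wild type. For the PAD4 to EDS1 ratio, RAV1OE (1.28 to 1.48) overlapped En2 wild type (0.813 to 1.45) and lay above bes1-D (0.640 to 1.08).

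SAG101 is named for its rise in senescing leaves, and 8 other senescence genes were measured. Of these, 5 were called higher and 0 lower in RAV1OE than in En2 wild type, beside 15% and 8.01% of all loci. SAG13 is 1 of the 5 and passed the filter through the RAV1OE libraries alone, and of the 7 genes at 1 FPKM or more in every library 4 were called higher. None was called in bes1-D. Their summed level, most of it from SAG21, was 1403 to 1503 FPKM in RAV1OE, 772 to 1332 FPKM in bes1-D and 791 to 1213 FPKM in En2 wild type. The 3 photosynthesis genes used as shoot markers were called lower in RAV1OE, with sums of 16247 to 22385 FPKM, 34308 to 38361 FPKM in bes1-D and 31319 to 33087 FPKM in En2 wild type. The part of either shift in the SAG101 and PAD4 differences was not tested.

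NPR1, the salicylic acid receptor and coactivator, had the next highest mean of the 10 in each group. It had 21.8, 20.7 and 23.9 FPKM in RAV1OE, 15.9, 16.7 and 11.5 FPKM in bes1-D, and 13.9, 14.5 and 16.2 FPKM in En2 wild type. RAV1OE did not overlap the other groups, which overlapped each other. The log2 difference was 0.54 from En2 wild type (SE 0.135, adjusted p = 0.0173) and 0.57 from bes1-D (adjusted p = 0.0085). The first call was lost without En2 wild type replicate 1 (0.0593) or 2 (0.059) and without RAV1OE replicate 1 (0.0523) or 3 (0.0617), and the second under median-of-ratios scaling (0.0551).

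PR1, the classical marker of the salicylic acid response, was at or near 0 outside 2 libraries. It had 1.53, 0.52 and 6.2 FPKM in RAV1OE, 0.6, 0.48 and 0.25 FPKM in bes1-D, and 0, 0 and 0.13 FPKM in En2 wild type. Both lines lay above En2 wild type in every library and overlapped each other. In the exact permutation test p was 0.1 for each line against En2 wild type, the smallest it allows, and 0.2 between the lines. No fold is given, because 2 of the 3 En2 wild type libraries are listed at 0.

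PR2, a beta-glucanase that attacks fungal walls, had 1.28, 2.38 and 2.37 FPKM in RAV1OE, 0.62, 0.21 and 0.35 FPKM in bes1-D, and 0.08, 0.47 and 1.06 FPKM in En2 wild type. RAV1OE lay above both other groups, by a narrow margin over En2 wild type replicate 3. Its log2 difference was 1.00 from En2 wild type (SE 0.265, adjusted p = 0.0227) and 1.098 from bes1-D (adjusted p = 0.00953). PR2 passed the filter mainly through the RAV1OE libraries, so neither difference is independent of its passing. Against En2 wild type the call was lost without En2 wild type replicate 1 (0.0745) or 2 (0.0652) and without RAV1OE replicate 2 (0.0565) or 3 (0.0768).

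**Figure D3:**
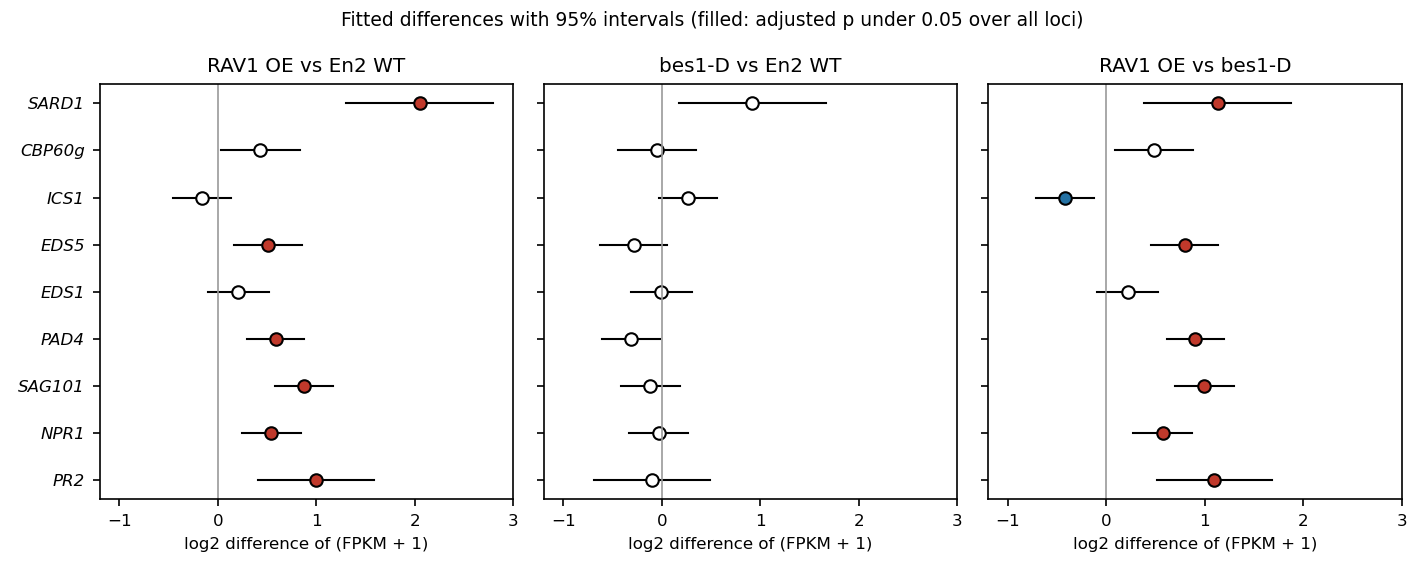
Fitted log2 differences of FPKM + 1 with 95% intervals for the 9 tested members, in RAV1OE against En2 wild type (left), bes1-D against En2 wild type (middle) and RAV1OE against bes1-D (right). Filled points passed an adjusted p of 0.05, red higher and blue lower. The left and right panels each hold 6 red points, the right panel adds ICS1 in blue, and the middle panel has none filled.

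The called differences did not rest equally on the libraries. Without RAV1OE replicate 3, 3 members were called higher against En2 wild type, and without En2 wild type replicate 2 also 3. PAD4 and SAG101 were called under all 18 alternatives, with adjusted p up to 0.0463 and 0.0118. SARD1 was called under the 17 alternatives that tested it, with adjusted p up to 0.0149. It missed the filter of 5 FPKM in 3 libraries. In 7 of the 9 members tested every RAV1OE library lay above every En2 wild type library, beside 31.2% of loci tested, and 0 lay wholly below, beside 15.6%. The bes1-D libraries lay above En2 wild type for SARD1 and ICS1, 2 of 9, beside 9.65%, and 0 lay wholly below, beside 19.8%. RAV1OE lay above bes1-D for 6 of 9, beside 38.2%, and below it for ICS1 alone, beside 13%. The counts of 7 and of 6 both include PR2, which passed the filter mainly through the RAV1OE libraries. PR1, which was not tested, lay above En2 wild type in both lines.

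FPKM are scaled to transcript length, so the levels of the 10 genes can be set side by side. SAG101 and NPR1 were highest in every group, followed by PAD4, EDS1 and ICS1 in En2 wild type. Their neighbours in the En2 wild type order overlapped, except at the steps between NPR1 and PAD4, ICS1 and EDS5, EDS5 and CBP60g, and SARD1 and PR2, the last of them with 1.07 FPKM beside 1.06 FPKM. SARD1 was the fifth in RAV1OE, at 9.003 ± 4.85 FPKM (SD, n = 3), the seventh in bes1-D, at 3.16 ± 0.577 FPKM, and the eighth in En2 wild type, at 1.19 ± 0.108 FPKM. In RAV1OE it overlapped EDS1 above and EDS5 below. ICS1 was the third in bes1-D, at 10.6 ± 1.09 FPKM, overlapping NPR1 and EDS1. Among all loci, mean SAG101 exceeded 77.8% in RAV1OE, 64.6% in bes1-D and 65.9% in En2 wild type, and mean PR1 exceeded 32.3%, 19.4% and 9.49%.

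Replicates of the RAV1OE line differed most in SARD1 and PR1. The coefficient of variation over its 3 libraries was 110% for PR1 and 53.8% for SARD1, against 8.62% for PAD4, 8.42% for SAG101, 7.26% for NPR1 and 3.87% for EDS1. Replicate 3 was highest and replicate 2 lowest in SARD1 and PR1, as they were in RAV1 itself. This order held in 5 of the 10 members, with EDS5, EDS1 and NPR1 over a narrower range. How many of all loci share it was not counted, so no background share stands beside that count. Outside the members it held for the response gene PR5, for NIMIN2 and DMR6, and for the seed storage gene CRC. CRC had 196, 58.2 and 757 FPKM in replicates 1 to 3. These are examples, and other pathway genes ran differently. Replicate 3 was lowest and replicate 2 highest in ANAC055, PAL2, PAL3 and NIMIN3. All 7 seed genes tested were called higher in RAV1OE than in En2 wild type, beside 15% of all loci. However, EM1 and PAP85 were tested through the RAV1OE libraries alone, and 3 of the 7 had 1 FPKM or more in every library. CRB, the eighth, was at 0 in all En2 wild type libraries and at 1.12, 0.25 and 5.55 FPKM in RAV1OE. CBP60g had its lowest value in replicate 3. With 3 libraries no relation between these levels was tested, and the part of the seed signal in the SARD1 and PR1 differences was not tested.

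**Figure D4:**
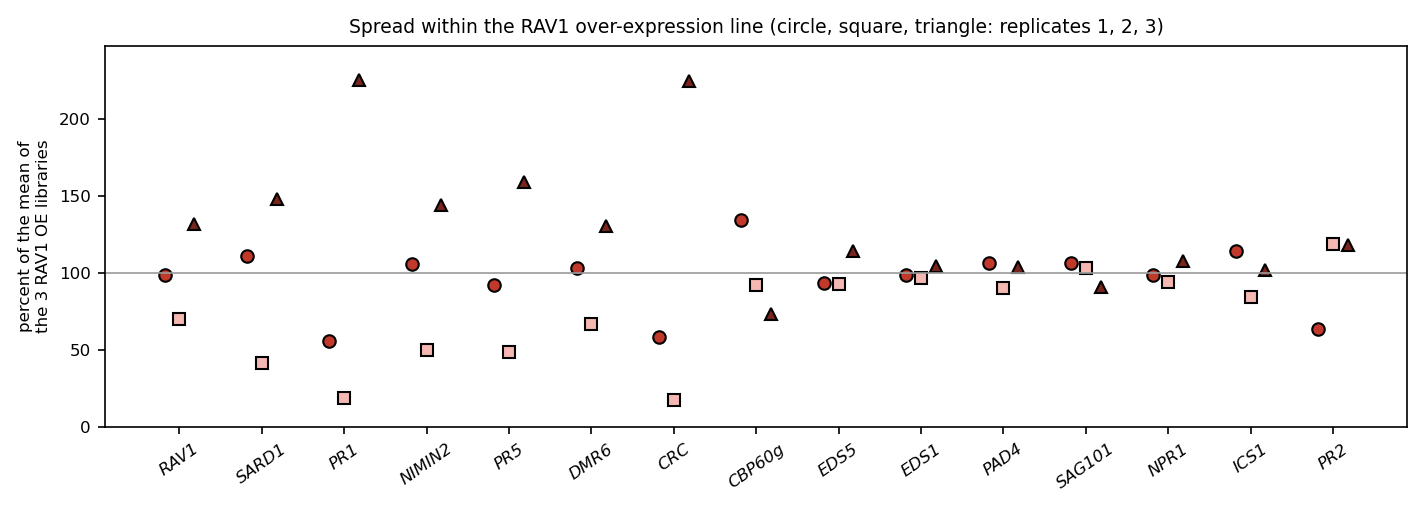
Level of each gene in the 3 RAV1OE libraries as a percentage of their mean, with the line at 100% and symbols for replicates 1 to 3. RAV1, SARD1, PR1, NIMIN2, PR5, DMR6 and CRC share the order of replicate 2, 1 and 3 from low to high. So do EDS1 and NPR1, which stay close to 100% as PAD4 and SAG101 do. NIMIN2, PR5, DMR6 and CRC are examples, and other pathway genes ran in other orders.

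The rest of the pathway moved in both directions in RAV1OE. Of 54 other genes listed by role, 53 were in the table and 48 were tested, and 12 were called higher and 6 lower than in En2 wild type. These shares, 25% and 12.5%, stand beside 15% and 8.01% of all loci. GRX480, 1 of the 12, was tested through the RAV1OE libraries alone. Of the 41 genes at 1 FPKM or more in every library, 10 were called higher and 6 lower. Over the 48 the median log2 difference was 0.21. In bes1-D 1 was called higher and 2 lower, beside 2.19% and 5.77% of all loci, with a median of -0.04.

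Among 11 upstream regulators, 4 were higher and 1 lower in RAV1OE, beside 15% and 8.01% of all loci. WRKY28, an activator of ICS1, had 19.4, 15.9 and 17.4 FPKM in RAV1OE, 10.5, 12.8 and 9.18 FPKM in bes1-D, and 8.36, 9.42 and 7.99 FPKM in En2 wild type (log2 difference from En2 wild type 0.95, adjusted p = 0.00115). The NAC factors ANAC019, ANAC055 and ANAC072 are known as a set that represses ICS1, and they did not move together. ANAC019 rose to 14.4, 6.11 and 23.4 FPKM in RAV1OE, against 1.21, 1.03 and 1.68 FPKM in En2 wild type (2.60, adjusted p = 0.00138). ANAC055 fell to 18.4, 24.2 and 13.5 FPKM in RAV1OE, against 47.7, 51.4 and 60.6 FPKM in En2 wild type (-1.49, adjusted p = 0.00182). ANAC072 was not called in RAV1OE (-0.02, adjusted p = 0.929) and was lower in bes1-D, with 11.8, 13.9 and 11.2 FPKM in bes1-D against 28.5, 22.5 and 29.8 FPKM in En2 wild type (-1.06, adjusted p = 0.00255), and it was higher in RAV1OE than in bes1-D (1.04, adjusted p = 0.000508). CAMTA3, a calmodulin-binding repressor of SARD1 and CBP60g, rose by 0.50 in RAV1OE (adjusted p = 0.00344). EIN3, an ethylene factor known to repress ICS1, rose by 0.33 (adjusted p = 0.0262) and was picked for naming with its value in view. Its call was lost under median-of-ratios scaling (0.0961), quantile normalization (0.0629) and without En2 wild type replicate 1 (0.0655) or 2 (0.106) or RAV1OE replicate 3 (0.093).

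Enzymes that make, conjugate or break down salicylic acid made up 4 of the 6 lower genes. Of 12 tested, 2 were higher and 4 lower in RAV1OE, beside 15% and 8.01% of all loci. UGT74F2, which attaches glucose to salicylic acid, had 51.2, 54.5 and 58.9 FPKM in RAV1OE, 120, 163 and 114 FPKM in bes1-D, and 137, 93.7 and 126 FPKM in En2 wild type (log2 difference from En2 wild type -1.09, adjusted p = 0.00179). UGT76B1, another glucosyltransferase of this hormone, was lower in both lines. It fell by 0.46 in RAV1OE (adjusted p = 0.0166) and fell by 0.66 in bes1-D (adjusted p = 0.00836). Both of these comparisons share the En2 wild type libraries. The first of them was lost without En2 wild type replicate 1 (0.0644) or 3 (0.0557).

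DMR6, which hydroxylates salicylic acid and so limits it, had 15.9, 10.3 and 20.2 FPKM in RAV1OE, 5.71, 7.6 and 6.07 FPKM in bes1-D, and 6.96, 4.56 and 5.02 FPKM in En2 wild type (log2 difference from En2 wild type 1.31, adjusted p = 0.00306). DLO1, on the same list, ran the other way, with 0.87, 1.01 and 1.29 FPKM in RAV1OE. It had 4.44, 4.93 and 3 FPKM in bes1-D and 3.96, 1.34 and 1.47 FPKM in En2 wild type. DLO1 was called lower in RAV1OE than in bes1-D (-1.30, adjusted p = 0.00546) but not against En2 wild type (-0.58, adjusted p = 0.157). Phenylalanine ammonia-lyases open the second route to salicylic acid and feed phenylpropanoids, and their members split. PAL4 was higher in RAV1OE (1.31, adjusted p = 0.00154), PAL2 (-0.96, adjusted p = 0.00746) and PAL3 (-1.53, adjusted p = 0.00789) were lower, and PAL1 was not called (0.26, adjusted p = 0.202). ICS2, the minor copy of ICS1, had 0.81, 0.74 and 0.8 FPKM in RAV1OE, 1.59, 1.65 and 1.7 FPKM in bes1-D, and 0.83, 1.19 and 0.82 FPKM in En2 wild type, and it was lower in RAV1OE than in bes1-D (-0.57, adjusted p = 0.0161). It passed the filter through all 3 bes1-D libraries and 1 of En2 wild type, so its passing and this difference are not independent. It shares no 25-base window with ICS1 in the reference.

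The list for the EDS1 node holds 7 genes, with EDS1B and NDR1 beside the helper receptors. Of these, 2 were higher in RAV1OE and 0 lower, beside 15% and 8.01% of all loci. ADR1, the helper receptor that acts with EDS1 and PAD4, had 17.4, 14.7 and 18.0 FPKM in RAV1OE, 8.26, 9.96 and 7.46 FPKM in bes1-D, and 8.17, 8.28 and 8.21 FPKM in En2 wild type (log2 difference from En2 wild type 0.94, adjusted p = 0.00092, and from bes1-D 0.89, adjusted p = 0.000538). ADR1-L1, its relative, differed by 0.45 from En2 wild type (adjusted p = 0.0273). That call was lost under median-of-ratios (0.0779) and quantile scaling (0.0768), and without En2 wild type replicate 1 (0.0927) or 2 (0.0682) or RAV1OE replicate 1 (0.0865) or 3 (0.0961). NRG1.1 (0.34, adjusted p = 0.0747) and NRG1.2 (0.37, adjusted p = 0.0926), the helpers that act with SAG101, lay above En2 wild type in every library without being called. NDR1 lay below En2 wild type in every RAV1OE library, also without being called (-0.46, adjusted p = 0.084). It was called lower in RAV1OE than in bes1-D (-0.52, adjusted p = 0.0415), a call lost in 9 of 18 alternatives. In bes1-D against En2 wild type none of the 7 was called.

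Perception genes had 2 higher and 1 lower of 11 tested in RAV1OE, near the background share. NIMIN2, which binds NPR1, had 12.1, 5.71 and 16.5 FPKM in RAV1OE, 2.02, 3.24 and 3.77 FPKM in bes1-D, and 4.2, 3.5 and 4.02 FPKM in En2 wild type (log2 difference from En2 wild type 1.24, adjusted p = 0.0183). This call was lost without En2 wild type replicate 2 (0.0659) or RAV1OE replicate 1 (0.068) or 3 (0.0525). NIMIN3, which also binds NPR1, was lower (-0.80, adjusted p = 0.00492). NPR2, the closest relative of NPR1, was higher at 3.04, 2.82 and 2.4 FPKM in RAV1OE against 1.41, 1.48 and 1.54 FPKM in En2 wild type (0.60, adjusted p = 0.0136), a call lost without RAV1OE replicate 1 (0.0585). The receptors NPR3 (0.14, adjusted p = 0.512) and NPR4 (-0.06, adjusted p = 0.757), which repress this response, were not called. TGA4, a partner of NPR1, was the 1 gene of the 48 called higher in bes1-D (0.43, adjusted p = 0.0255), and that call was lost without En2 wild type replicate 1 (0.096) or 3 (0.0762) or bes1-D replicate 1 (0.0618) or 2 (0.0833).

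Response genes other than PR1 and PR2 had 2 higher and 0 lower of 6 tested in RAV1OE, beside 15% and 8.01% of all loci. PR5, a thaumatin-like protein, had 14.2, 7.47 and 24.4 FPKM in RAV1OE, 5.29, 3.82 and 4.66 FPKM in bes1-D, and 5.27, 5.41 and 7.16 FPKM in En2 wild type. All RAV1OE libraries were above the others, the lowest of them only just (log2 difference from En2 wild type 1.11, adjusted p = 0.038). That call was lost without any 1 of the 3 En2 wild type libraries (0.102, 0.11 and 0.0594), without RAV1OE replicate 1 (0.1) or 3 (0.0771) or bes1-D replicate 2 (0.0502) or 3 (0.0521), with no filter (0.054), with only the 2 groups fitted (0.0659) and under median-of-ratios (0.0528) and quantile scaling (0.0561). GRX480, a glutaredoxin that binds TGA factors, reached 1.75, 1.83 and 2.1 FPKM in RAV1OE and passed the filter through those libraries alone, which leaves PR5 as the 1 higher of the other 5. WRKY70, a factor downstream of NPR1, had 10.12, 7.04 and 17.2 FPKM in RAV1OE, 11.3, 18.7 and 17.5 FPKM in bes1-D, and 10.42, 21.2 and 18 FPKM in En2 wild type. RAV1OE replicates 1 and 2 lay below every other library and replicate 3 lay inside both other ranges. The difference from En2 wild type was not called (-0.52, adjusted p = 0.285).

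**Figure D5:**
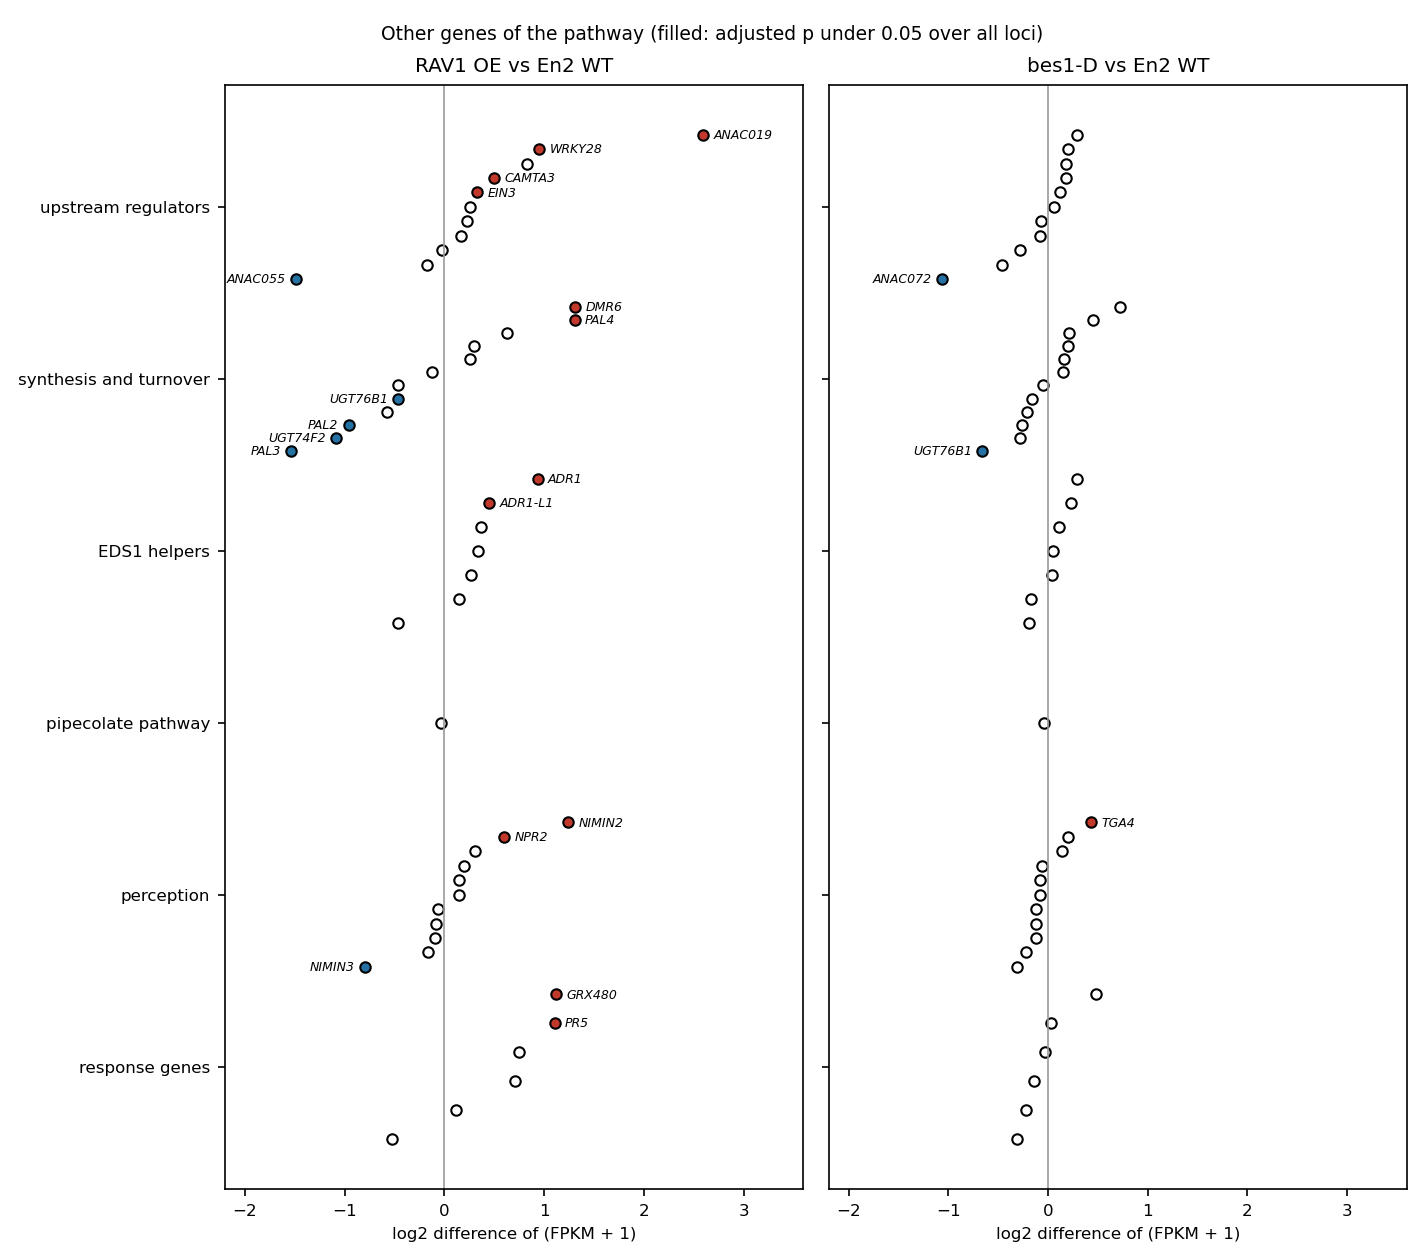
Fitted log2 differences of FPKM + 1 for the 48 other pathway genes tested, ordered by value within 6 lists, in RAV1OE against En2 wild type (left) and bes1-D against En2 wild type (right). Filled points passed an adjusted p of 0.05, red higher and blue lower. The left panel has 12 red and 6 blue points, with 4 of the blue among synthesis and turnover, and the right panel has 1 red and 2 blue.

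Tested between the lines, 15 of the 48 were higher and 10 lower in RAV1OE than in bes1-D (31.2% and 20.8%, beside 28% and 10.6% of all loci), and 12 and 8 of the 41 at 1 FPKM or more in every library. ANAC019 (3.06, adjusted p = 0.000306), NIMIN2 (1.55, adjusted p = 0.00418), PAL4 (1.47, adjusted p = 0.000433) and PR5 (1.42, adjusted p = 0.00902) led the higher ones. PAL3 (-1.74, adjusted p = 0.00273), UGT74F2 (-1.24, adjusted p = 0.000471), ANAC055 (-1.21, adjusted p = 0.00276) and TGA4 (-0.51, adjusted p = 0.00296) were among the lower ones. The median over all loci in this comparison was 0.19 and became 0.02 when libraries were rescaled by median of ratios. PAD4 differed by 0.73 and SAG101 by 0.81 after that rescaling. Over all loci, 65.2% of the calls in RAV1OE against En2 wild type were higher, and 46.4% after rescaling. For RAV1OE against bes1-D these shares were 72.6% and 43.7%, and for bes1-D against En2 wild type 27.5% and 48.7%.

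Loci with a profile like that of SARD1 and ICS1 over the 9 libraries were taken from those with a mean of at least 5 FPKM, by Pearson correlation of log2(FPKM + 1), as a description. The 9 libraries are 3 groups of 3, so a difference between groups alone can give a high value. Closest to SARD1 were ARPN, a plantacyanin (0.986), the cytochrome P450 CYP71B6 (0.984), AT1G04990 (0.982), the metallothionein MT2A (0.981) and GMI1 (0.979). ARPN had means of 58.4 FPKM in RAV1OE, 12.4 FPKM in bes1-D and 5.96 FPKM in En2 wild type, the same order of groups as SARD1. Closest to ICS1 were FLA2, a fasciclin-like arabinogalactan protein (0.931), AT1G55260 (0.917), the wax gene CER2 (0.916), NTH2 (0.915) and RD22 (0.913), and the mean of FLA2 was 67.9 FPKM in RAV1OE, 123 FPKM in bes1-D and 88.2 FPKM in En2 wild type. For EDS1 the closest locus was AT1G49180 (0.957), followed by the peroxisomal receptor PEX7 (0.951), and for PR1 it was AT1G72010 (0.984), the TCP factor TCP22. Between members, ICS1 ran against SAG101 (-0.74) and EDS5 (-0.69) over the same libraries.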

How the data were processed

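The authors extracted total RNA with TRI Reagent, made TruSeq RNA libraries and sequenced them as 100-base pairs on a HiSeq2500, per the labels' protocols. The submitters' processing notes name FastQC 0.10.1, TopHat2, Cufflinks 2.1.1 and the TAIR10 build. The sources used here do not give the strand setting or the handling of multiply mapped fragments. The authors deposited 1 table of FPKM for 25199 loci, whose absolute depth is unknown, so no counting interval is given.

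The members and gene lists were chosen with earlier results of these data known. From the deposited FPKM, log2(FPKM + 1) of all 9 libraries was fitted as group means with limma 3.58.1 in R 4.3.3 (6 residual degrees of freedom, trend and robust options, 3 contrasts). The pseudocount understates changes of low genes. The test covered the 19740 loci that reached 1 FPKM in 3 or more libraries, with Benjamini-Hochberg adjustment over all of them and two-sided p. For single members (in R) and for the ratios (scipy 1.17.1) an exact permutation test of 3 against 3 libraries was added, which cannot go below p = 0.1. The fit was tested on simulated data.

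Named genes were the 10 members, RAV1, BES1, up to 4 called genes per other list and comparison by smallest p, and the 5 loci of highest correlation with SARD1, ICS1, EDS1 and PR1. Outside this rule, and named after their values were known, are EDS1B, ICS2, DLO1, NRG1.1, NPR3, NPR4, WRKY70, PAL1 and EIN3. So are the untested NIMIN1, FMO1, ALD1 and PBS3, and single marker genes. Marker lists covered shoot, root, floral, seed, senescence and handling genes. Handling genes had 0 of 5 called in RAV1OE or bes1-D against En2 wild type at adjusted p, beside 23% and 7.96% of all loci. In RAV1OE against bes1-D 1 of the 5 was higher and 1 lower, beside 28% and 10.6%. The bes1-D libraries lay wholly above En2 wild type for 1 of the 5 and wholly below for 1, beside 9.65% and 19.8%. Root markers had 3 higher and 2 lower of 7 in RAV1OE, beside 15% and 8.01% of all loci. In bes1-D they had 0 higher and 2 lower, beside 2.19% and 5.77%. Coordinates and promoters come from RefSeq TAIR10.1, to which 25135 loci were matched by identifier. BSMT1 and SAG12 are not analysed here. Alternatives were other pseudocounts, filters, scalings and priors, a replicate block, fits of 2 groups and leaving out each library.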

Additional observations from a re-analysis of the deposited data

How the results depend on the processing

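Values are on the log2(FPKM + 1) scale, depth is unknown, and with 3 replicates each call rests on few libraries. Of the values recomputed for single genes under each alternative, 1283 kept their direction and side of the threshold, 96 were no longer called, 5 became called and 13 changed sign. Members called higher in RAV1OE against En2 wild type numbered 3 to 6 when 1 library was left out, beside 6 in all, and other pathway genes called higher 7 to 13, beside 12. For bes1-D against En2 wild type, 1 member (SARD1) was called higher with only the 2 groups compared, and 0 to 1 with 1 library left out, beside 0. Other pathway genes called higher there were 2 with no filter and 2 with a plain empirical Bayes prior, and 0 to 2 with 1 library left out, beside 1. Members lower in RAV1OE than in bes1-D were 0 with only the 2 groups compared and 0 to 1 with 1 library left out, beside 1. The cause was not tested. The values that changed sign were all uncalled and in bes1-D against En2 wild type. CBP60g became 0.0423 under quantile normalization. EDS1 became 0.0715 by median-of-ratios scaling and 0.0563 by quantiles, and ran from -0.128 to 0.0906 with 1 library left out. NPR1 became 0.0477 by median-of-ratios scaling and 0.0283 by quantiles, and ran from -0.128 to 0.124 with 1 library left out. With 1 library left out PR2 ran from -0.331 to 0.135 and SAG101 from -0.255 to 0.00196, above 0 only without En2 wild type replicate 3. Deviations from the group means had correlations of -0.08 to 0.15 between libraries with the same replicate number. Between libraries with different numbers they were -0.16 to 0.07. These low values do not settle whether the numbers pair the samples. With the replicate block 5 members were called higher in RAV1OE against En2 wild type, 0 in bes1-D, and 6 higher and 1 lower in RAV1OE against bes1-D.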

Other observations

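Low loci of the pathway missed the filter and are given as values. NIMIN1, another protein that binds NPR1, had 0.27, 0.23 and 0.86 FPKM in RAV1OE, 0, 0 and 0.23 FPKM in bes1-D, and was listed at 0 in all En2 wild type libraries. FMO1, which makes N-hydroxypipecolic acid, the mobile signal of systemic resistance, had 0.82, 0.11 and 1.01 FPKM in RAV1OE, 0.49, 0.15 and 0 FPKM in bes1-D, and 0, 0.07 and 0 FPKM in En2 wild type. All RAV1OE libraries lay above En2 wild type for both genes, as they did for 31.2% of the loci tested. These values are near 0 and depth is unknown, and for FMO1 the margin was 0.11 FPKM against 0.07 FPKM. ALD1, which begins the pipecolic acid route, showed another pattern, with 0, 0.07 and 0 FPKM in RAV1OE, 0.48, 0.64 and 0.76 FPKM in bes1-D, and 0.07, 0.17 and 0.14 FPKM in En2 wild type. The bes1-D libraries were the highest of the 9. PBS3, which conjugates isochorismate to glutamate, had 0.74, 0.04 and 1.42 FPKM in RAV1OE, 0.26, 0.12 and 0.29 FPKM in bes1-D, and 0.23, 0.22 and 0.3 FPKM in En2 wild type, with overlap.

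Floral organ genes were also present at low levels. AP3 and AG were called higher in RAV1OE than in En2 wild type, by 1.39 (adjusted p = 0.00117) and 0.99 (adjusted p = 0.00182) in limma. Summed with AP1 and PI, they reached 11.4 to 14.5 FPKM in RAV1OE, 3.72 to 5.2 FPKM in bes1-D and 4.76 to 5.25 FPKM in En2 wild type.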
